A study of Homo sapiens with 2 samples.

Results

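The mitochondrial chromosome of human cells encodes 37 genes: 13 messenger RNAs for subunits of the respiratory chain and ATP synthase, 2 ribosomal RNAs and 22 transfer RNAs. All genes whose symbol starts with MT- were taken and mapped to the Ensembl identifiers of the deposited values. Values were found for 16 of the 37, namely the 13 messenger RNAs, both ribosomal RNAs and the transfer RNA MT-TP, among 28303 genes in all, and the other 21 transfer RNAs are not analysed here. The cells were HGC27, a human line established from a gastric cancer, at passage 4-6. For the control library they were transfected with the plasmid pcDNA3.1-control, and for the other, called the LINC01133 library here, with pcDNA3.1-linc01133 to overexpress the long non-coding RNA LINC01133. Both were harvested 48 h after transfection with Turbofect. Each group held 1 library, so no difference below has a replicate check, and the share of cells that took up the plasmid is not given in the labels.

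Both strands of the mitochondrial chromosome are transcribed into long precursors by the single-subunit polymerase POLRMT with the factors TFAM and TFB2M. Transfer RNAs lie between most of the other genes, and their excision frees the messenger and ribosomal RNAs. Most mitochondrial messenger RNAs then receive a short poly(A) tail, which in several of them completes the stop codon, whereas MT-ND6, the only messenger RNA read from the light strand, is known to lack a stable tail. The ribosomal RNAs carry only a few A residues at their 3′ ends. This bears on the data because, per the labels' protocols, RNA was selected with poly-T beads before library preparation. In bulk RNA, fewer mitochondria or genome copies per cell and less RNA per copy cannot be told apart.

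The 3′ ends of the annotated messenger RNAs are shown because they separate those annotated with an incomplete last codon from those annotated with a complete one. They are printed 5′ to 3′ in the sense of the RNA, as T, from the GENCODE 29 transcripts on GRCh38, with the last codon or the last incomplete codon in capitals.
MT-ND1: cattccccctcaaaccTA
MT-ND2: ttatactaataatcttaT
MT-CO3: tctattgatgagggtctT
MT-ND3: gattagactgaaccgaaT
MT-ND4: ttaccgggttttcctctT
MT-CYB: aaatactcaaatgggccT
MT-CO1: gtatacataaaatctAGA
MT-CO2: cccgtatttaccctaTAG
MT-ATP8: ttgcccccacaatccTAG
MT-ATP6: ctgcacgacaacacaTAA
MT-ND4L: aacctactccaatgcTAA
MT-ND5: ctactcctaatcacaTAA
MT-ND6: attgctcgggggaatAGG
In 5 of the 13 the annotated RNA ended with a single T and in 1, MT-ND1, with TA. Of the rest, 3 ended with TAA, 2 with TAG, MT-CO1 with AGA and MT-ND6 with AGG. Every one of the 6 with an incomplete codon is followed directly, on the same strand, by a transfer RNA gene. The last base of the TAA of MT-ATP6 is also annotated as the first base of MT-CO3. The annotated ends alone therefore do not tell which RNAs need a tail.

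A pair of transfer RNAs is shown for the results that follow. MT-TL1, the transfer RNA for leucine at chrM:3230-3304 on the plus strand, separates the ribosomal RNA MT-RNR2 from MT-ND1 and holds the known binding site of the termination factor MTERF1. MT-TP, the transfer RNA for proline at chrM:15956-16023 on the minus strand, is the transfer RNA with a value.
MT-TL1: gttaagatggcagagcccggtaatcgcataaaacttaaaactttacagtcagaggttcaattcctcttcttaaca
MT-TP: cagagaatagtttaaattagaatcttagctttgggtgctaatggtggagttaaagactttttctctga

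The control library held 15666629 counted fragments and the LINC01133 library 16302581. Levels are given in FPKM, a unit that divides fragments by exon length and library depth. It does not correct for unequal capture of RNAs by poly-T selection or for genes as short as the 68 bases of MT-TP. Comparisons between genes below are thus of FPKM and not of numbers of molecules. Intervals are exact, at 95%, and cover counting error only. The overexpressed gene itself went from 0.0809 to 1.44 FPKM, or from 4 to 74 fragments. Of 13 epithelial markers with a value, 1 had a mean FPKM of at least 1 and the highest value in either library was 1.41. Of 11 gastric lineage markers with a value, 3 had such a mean, the transcription factors GATA4 (8.36 and 6.36), GATA6 (3.71 and 3.48) and CDX2 (3.22 and 2.53). Another 3, TFF2, MUC5AC and CTSE, were at 0 in both libraries, and the 11 summed to 15.6 and 12.9. Of 10 mesenchymal markers with a value, 9 had a mean FPKM of at least 1, and the 10 summed to 529 and 524. Their levels were uneven. The filament gene VIM stood at 198 and 210 and COL1A1 at 209 and 162, whereas CDH2 had 0.0516 and 0.0744. The 5 blood and endothelial markers with a value summed to 3.74 and 2.85, with 1 at 0 in both.

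Transcripts of the mitochondrial chromosome took nearly the same share of each library, but their make-up differed. The 16 genes together held 10.3% of the control fragments (10.29% to 10.32%) and 10.2% of those of the LINC01133 library (10.14% to 10.17%). The 13 messenger RNAs took 8.92% and 7.98% of the libraries, control first as throughout, a ratio of 0.894 (0.892 to 0.896). The 2 ribosomal RNAs went the other way, from 1.36% to 2.15%, a ratio of 1.58 (1.57 to 1.59). Within the mitochondrial fragments alone, messenger RNAs made up 86.6% and then 78.6%, and ribosomal RNAs 13.2% and 21.2%. These shares within the mitochondrial fragments do not depend on how the libraries are scaled.

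**Figure D1:**
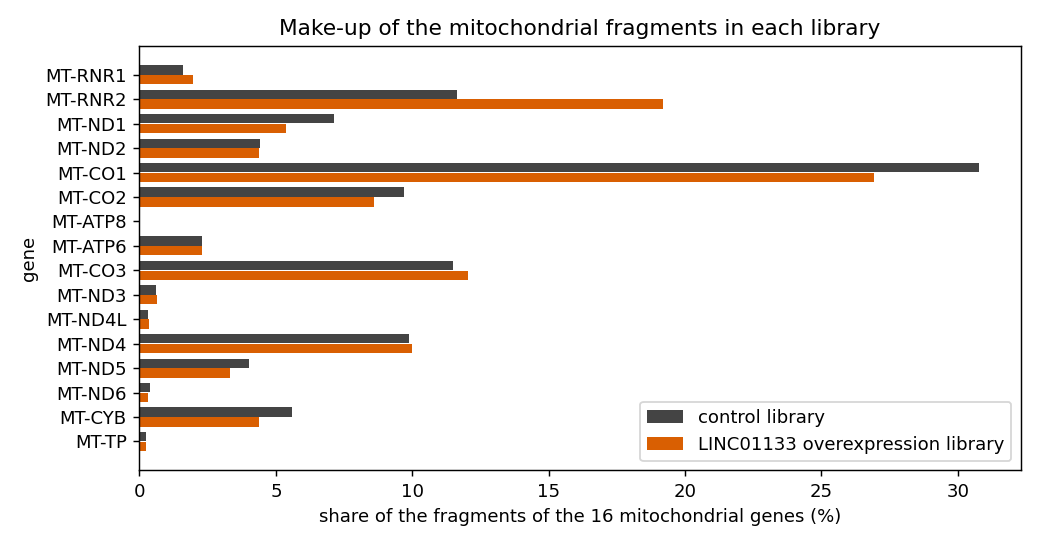
Share of the fragments of the 16 mitochondrial genes (horizontal axis, percent) taken by each gene (vertical axis) in either library, control in grey and LINC01133 in orange. MT-CO1 takes the largest share in both, 30.8% and 26.9%, and MT-RNR2 goes from 11.6% to 19.2%.

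MT-RNR2, the 16S RNA of the large mitochondrial ribosomal subunit (ENSG00000210082, chromosome M, 1671 to 3229, plus strand), was higher in the LINC01133 library by FPKM. Its FPKM went from 7695 to 12505, a ratio of 1.63 (1.62 to 1.63). The log2 ratio of FPKM + 1, 0.70, lay between the quartiles, 0.23 and 0.77, of nuclear protein-coding genes at 39.6% to 47.7% GC. Under the scalings and trends given below it was lower, down to 0.24. MT-RNR1, the 12S RNA of the small subunit (ENSG00000211459, 648 to 1601), lies upstream of MT-RNR2 on the same precursor. It had 1707 and 2082, a ratio of 1.22 (1.20 to 1.24). The ribosomal RNAs are needed in equal number in the ribosome, but in these libraries MT-RNR2 stood 4.51 times above MT-RNR1 per length in the control library and 6.01 times in the other.

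The genes on either side of MT-TL1 had like FPKM in the control library and unlike FPKM in the other. MT-ND1 (ENSG00000198888, 3307 to 4262), a membrane subunit of complex I, is the first messenger RNA after the ribosomal RNAs. Its FPKM of 7708 in the control lay within the counting error of the 7695 of MT-RNR2, a ratio between the genes of 0.998. In the LINC01133 library MT-ND1 had 5710, and MT-RNR2 was 2.19 times as high. MT-ND1 itself had a ratio of 0.741 (0.734 to 0.747) between the libraries, the lowest of the 16. With the trends on GC content and length given below subtracted, the log2 ratios were 0.33 for MT-RNR2 and -0.40 for MT-ND1, from 0.70 and -0.43. MT-RNR2 carries only a few A residues, and poly-T selection may capture these RNAs unequally. The part of that selection in these ratios was not tested. Whether termination at MT-TL1 differed was not tested.

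Few other RNAs that lack a long poly(A) tail had usable values, and their part in the ribosomal RNA difference was not tested. Of 53 names on the list of such RNAs, 10 had a value. Of these, 8 passed the filter used here and below, a mean over both libraries of at least 1 FPKM. Among the 8, 5 were higher in the LINC01133 library and 3 lower, beside 55.4% and 44.6% of all genes. The 3 lower ones were 2 of the 5.8S ribosomal RNA genes below and VTRNA1-3. On the higher side, RNU5A-1 rested on 3 and 6 fragments. These counts therefore set no direction. The median log2 ratio of the 8 was 0.26 beside 0.10 for all genes. The highest in level was a gene of the cytosolic 5.8S ribosomal RNA, ENSG00000278233, with 1.25 and 174 FPKM, from 3 and 435 fragments. Another copy, ENSG00000275215, had 35.5 and 22.05, from 85 and 55. The 3 listed 5.8S genes are near-identical, so their single values are uncertain, and they summed to 38.4 and 198. The signal recognition particle RNA RN7SL2 had 11.7 and 13.9 and the small nucleolar RNA SNORA73B 3.75 and 5.71, from 12 and 19 fragments. At least 2-fold apart in FPKM + 1 were ENSG00000278233 on the higher side and VTRNA1-3, from 3 and 0 fragments, on the lower. Among all genes 11.9% were so called on the higher side and 0.444% on the lower.

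The messenger RNAs for complex IV, cytochrome c oxidase, were the most abundant. MT-CO1, the catalytic subunit (ENSG00000198804, 5904 to 7445), had the highest FPKM of all 28303 genes in both libraries, 20562 and 17720, a ratio of 0.862 (0.858 to 0.865). MT-CO2, which carries the copper site that takes electrons from cytochrome c, had 14614 and 12774, a ratio of 0.874 (0.868 to 0.880). MT-CO3 was slightly higher, with 15096 and 15595 and a ratio of 1.03 (1.03 to 1.04). In the control MT-CO3 was 1.03 times MT-CO2, and in the LINC01133 library 1.22 times.

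Complex I, NADH dehydrogenase, takes 7 of the 13 messenger RNAs, and these differed in both directions. MT-ND4, a proton-pumping subunit, had 7383 and 7364 and MT-ND2, another, 4359 and 4277, ratios of 0.997 (0.991 to 1.004) and 0.981 (0.971 to 0.991). MT-ND3 had 1808 and 1839, a ratio of 1.02 (0.989 to 1.05). MT-ND4L, read from the same messenger RNA as MT-ND4, had 1025 and 1166, a ratio of 1.14 (1.09 to 1.18). MT-ND5, a proton-pumping subunit encoded far from the promoter, was lower, with 2283 and 1855 and a ratio of 0.813 (0.803 to 0.822). MT-ND6 (ENSG00000198695, 14149 to 14673, minus strand) had 747 and 591, a ratio of 0.791 (0.762 to 0.821). Beside MT-ND1, these last 2 were the complex I messengers with the lowest ratios, and the intervals of MT-ND3 and MT-ND4 held 1.

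MT-CYB, cytochrome b of complex III and its only mitochondrially encoded subunit (ENSG00000198727, 14747 to 15887), had 5057 and 3886, a ratio of 0.768 (0.761 to 0.776). MT-CYB follows MT-ND5 on the plus strand with MT-ND6 between them on the other, and all 3 were lower in the LINC01133 library by similar factors. The summed fragments of complex III, of complex IV and of the 7 complex I messengers thus had ratios of 0.768, 0.902 (0.899 to 0.905) and 0.897 (0.894 to 0.901), and those of both complex V messengers one of 0.985 (0.971 to 0.999).

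ATP synthase, complex V, has MT-ATP6, a channel subunit, and MT-ATP8 on 1 shared messenger RNA. MT-ATP6 (ENSG00000198899, 8527 to 9207) had 3470 and 3417, a ratio of 0.985 (0.971 to 0.999). MT-ATP8 (ENSG00000228253, 8366 to 8572) had only 5.24 and 9.78, from 17 and 33 fragments, a ratio of 1.87 (1.01 to 3.57). MT-ATP6 thus stood 662 and 349 times above a gene with which it shares its RNA. Of the 207 bases of MT-ATP8, 46 are also annotated as MT-ATP6. How fragments over more than 1 gene were counted is not given in the sources used here, so the level of MT-ATP8 is uncertain. The same holds, to a lesser degree, for MT-ND4L, which shares 7 of its 297 bases with MT-ND4. MT-ND4 stood 7.20 and 6.31 times above it.

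MT-TP had an FPKM of 3406 and 3788, from 3628 and 4199 fragments, a ratio of 1.11 (1.06 to 1.16). This FPKM exceeded that of 5 of the 13 messenger RNAs in the control and of 6 in the LINC01133 library. Mature transfer RNAs end in CCA and not in a poly(A) tail, and FPKM does not correct for a gene of 68 bases. MT-TP lies on the minus strand, just after MT-CYB and MT-TT on the plus strand. The labels name no directional version of the library kit, so fragments of precursors from either strand cannot be told apart over MT-TP, and likewise over MT-ND6.

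**Figure D2:**
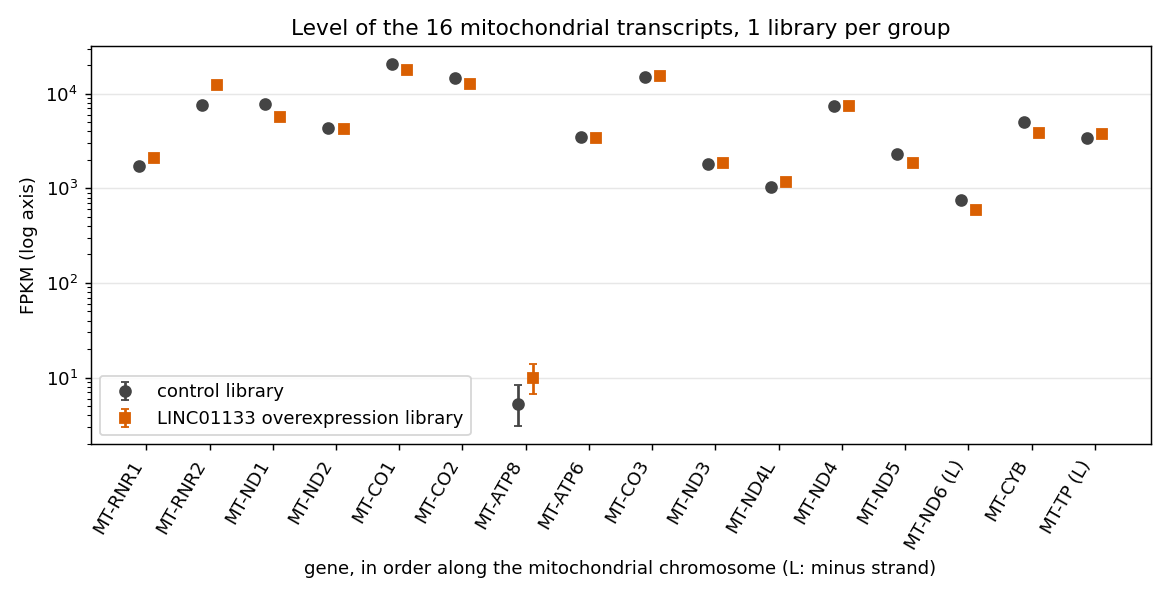
FPKM (vertical log axis) of the 16 mitochondrial genes in their order along the chromosome (horizontal axis), with circles for the control and squares for the LINC01133 library, and 95% counting intervals. The order of levels is much the same in both, from MT-CO1 at 20562 and 17720 down to MT-ATP8 at 5.24 and 9.78.

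The order of levels was kept for most of the chromosome. MT-CO1, MT-CO3 and MT-CO2 were the top 3 in both libraries, and MT-ND4L, MT-ND6 and MT-ATP8 the bottom 3. In the control, MT-ND1 and MT-RNR2 were neighbours in the order with overlapping counting intervals, as were MT-ATP6 and MT-TP. In the LINC01133 library MT-CYB and MT-TP overlapped, as did MT-ND5 and MT-ND3. Across the 13 messenger RNAs, the log2 FPKM of the 2 libraries had a Spearman correlation of 0.989, as a description over genes that share both libraries. In each library 13 of the 16 genes were among the 20 highest of all genes. Among nuclear genes with a symbol, the elongation factor EEF2 had the highest mean over both libraries, at 3880 and 2466. It need not be the highest nuclear gene in the LINC01133 library. The plus-strand messenger RNAs other than MT-ATP8 spanned 1025 (MT-ND4L) to 20562 FPKM (MT-CO1) in the control, a spread far wider than the difference between the libraries.

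None of the 16 genes was 2-fold apart between the libraries. All 16 had a mean FPKM of at least 1, and by the log2 ratio of FPKM + 1, overexpression over control, 0 were at least 2-fold higher and 0 at least 2-fold lower. The shares among all 11945 genes past that mean were 11.9% higher and 0.444% lower. At 1.5-fold, 2 of the 16 were higher, MT-RNR2 and MT-ATP8 with log2 ratios of 0.70 and 0.79, and 0 were lower, beside 26.8% and 5.29% of all genes. Of the 13 messenger RNAs 4 had a log2 ratio above 0 and 9 one below 0, beside 55.4% and 44.6% of all genes, and their median was -0.03 beside 0.10. By counting error alone, the interval left out 1 for 8 messenger RNAs on the lower side and for 3 on the higher side. The share of all genes with such an interval is not given here.

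**Figure D3:**
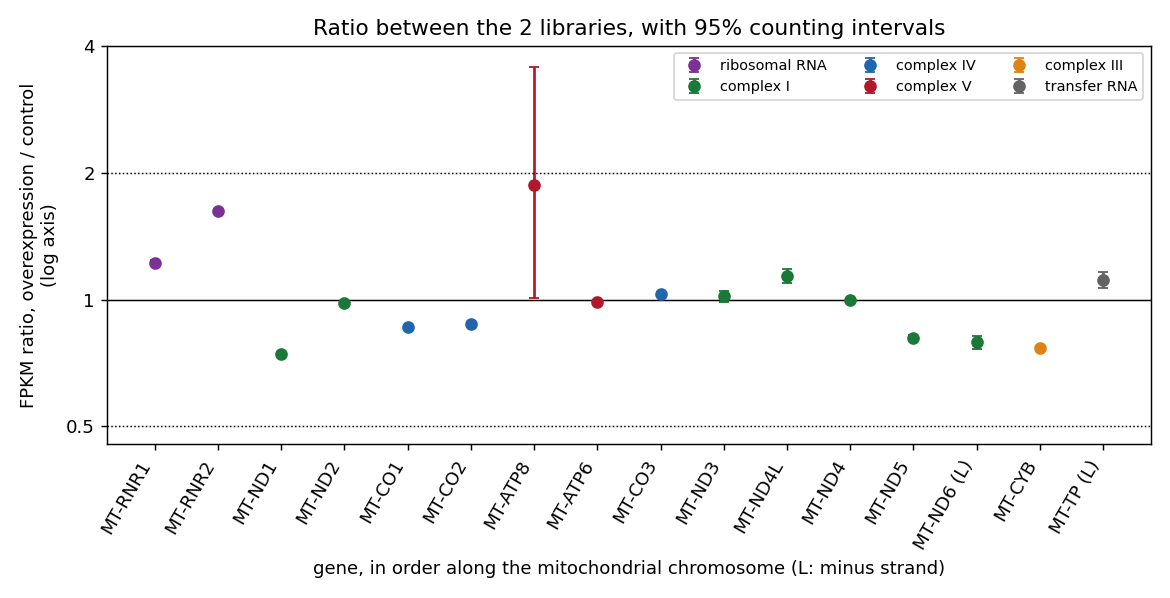
Ratio of FPKM, overexpression over control (vertical log axis), for the 16 mitochondrial genes in their order along the chromosome (horizontal axis), with 95% counting intervals, colours for the complex or RNA class and dotted lines at 2-fold. The highest ratio with a narrow interval is that of MT-RNR2 at 1.63 and the lowest that of MT-ND1 at 0.741.

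The sign of several small differences depended on the scaling. Median-of-ratios scaling and the trimmed mean of M values lowered the log2 ratios of FPKM by 0.21, and the upper quartile by 0.42. In FPKM + 1 the low gene MT-ATP8 moved less, from 0.79 to 0.60 by median of ratios and to 0.41 by the upper quartile. MT-RNR2 and MT-ATP8 stayed above 0 under all 3, with MT-RNR2 between 0.28 and 0.49. MT-RNR1 went from 0.29 to 0.07 by the trimmed mean and to -0.13 by the upper quartile. MT-CO3, MT-ND3, MT-ND4L and MT-TP turned below 0 under each of them. The 9 messenger RNAs below 0 as deposited were MT-ND1, MT-ND2, MT-CO1, MT-CO2, MT-ATP6, MT-ND4, MT-ND5, MT-ND6 and MT-CYB. These scalings could not change their sign, because each scaling lowers the log2 ratios.

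The messenger RNAs had lower log2 ratios than most nuclear genes of like base composition. Across the nuclear protein-coding genes past the filter the log2 ratio was higher for AT-rich transcripts, and its Spearman correlation with GC content was -0.845 over 10322 genes. The mitochondrial messenger RNAs span 39.6% to 47.7% GC. Of the 3331 nuclear protein-coding genes in that range, 2980 had a log2 ratio above 0 and the median was 0.50, against 4 of 13 and -0.03. The 74 of them that also had a mean FPKM of at least 100 had a median of 0.15, with 50 above 0. With lowess trends on GC content and transcript length subtracted, all 13 messenger RNAs were below 0, between -0.81 for MT-ND6 and -0.02 for MT-CO3, with a median of -0.36 beside 0.10 for all genes. Abundant nuclear protein-coding genes lay between, with medians of -0.10 for those 74, -0.09 for all 300 with a mean FPKM of at least 100 and -0.12 for the 38 with at least 500. The share below 0 after subtraction is not given here for all genes or for these, so the count of 13 has no background. Without subtraction those 38 had a median of -0.45 with 5 above 0, lower than the -0.03 of the mitochondrial messenger RNAs. With the GC trend alone the median was -0.37 and MT-ATP8 stood at 0.03. MT-RNR2 and MT-RNR1 remained above 0, at 0.33 and 0.15 with both trends and 0.24 and 0.07 with that on GC content alone. MT-TP went to -1.49 and -1.05, but only 30 genes past the filter had a transcript as short as its 68 bases. No replicate spread is known for these differences.

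Within the chromosome, the log2 ratio ran against GC content and against length. The most AT-rich messenger RNA, MT-ATP8 at 39.6% GC, had the highest and the most GC-rich, MT-ND1 at 47.7%, the lowest. Over the 13 messenger RNAs the log2 ratio and GC content had a Pearson's r of -0.697 and Spearman's rho -0.511, and over the 12 without MT-ATP8 they were -0.499 and -0.378. With transcript length Spearman's rho was -0.566 over the 13 and -0.448 over the 12. These are descriptions across genes of the same libraries. MT-ND6 departed from that order: at 42.7% GC it had a log2 ratio of -0.34, while MT-RNR2 at 42.8% had 0.70 and MT-ND2 at 42.99% had -0.03. As the light-strand messenger, MT-ND6 also has the opposite base skew, with 35.6% G and 7.05% C in the RNA, where the other 12 have between 6.28% and 16.2% G and between 29.5% and 35.98% C. The longest run of A within any of the 16 annotated RNAs was 8 bases, in MT-ND5, and MT-RNR2 had 7, as did MT-ND2, MT-CO1 and MT-ND4.

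**Figure D4:**
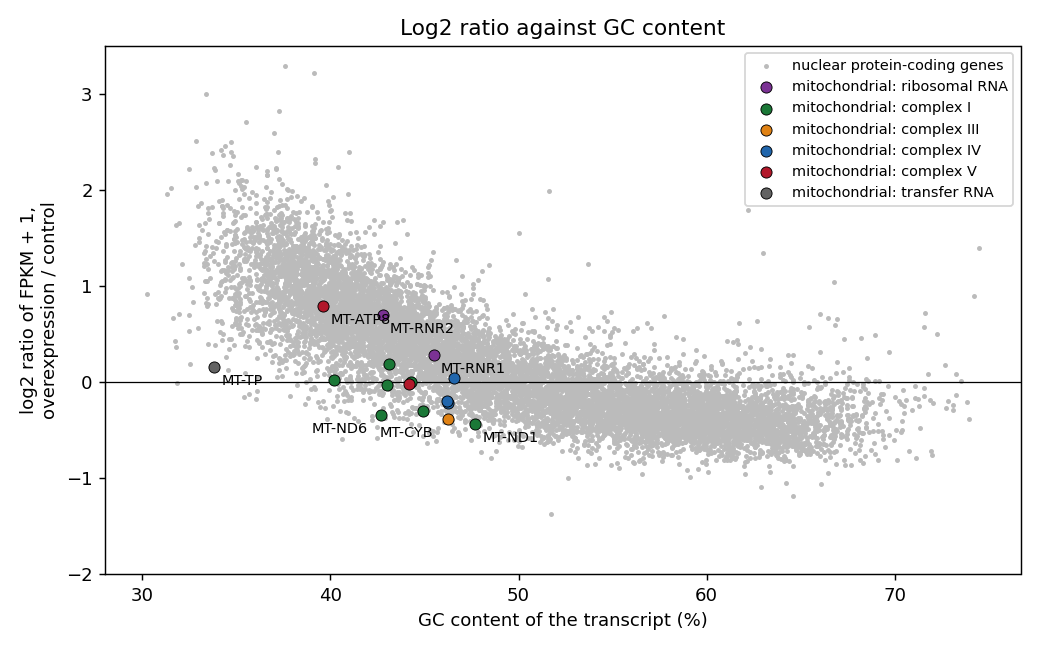
Log2 ratio of FPKM + 1, overexpression over control (vertical axis, cut at -2 and 3.5), against the GC content of the transcript (horizontal axis, percent), with nuclear protein-coding genes past the filter in grey and the 16 mitochondrial genes in colour by class. Most mitochondrial messenger RNAs lie in the lower part of the grey cloud at their GC content, where the nuclear median is 0.50, and MT-RNR2 lies within it at 0.70.

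The messenger RNAs annotated with an incomplete last codon did not form a group by their differences. These 6 spanned log2 ratios from -0.43 for MT-ND1 to 0.05 for MT-CO3. The 7 with a complete codon spanned -0.34 for MT-ND6 to 0.79 for MT-ATP8, so the groups overlapped. The groups are not of separate RNAs, because MT-ND4L shares its RNA with MT-ND4 of the other group. MT-ATP8 shares its RNA with MT-ATP6, whose last base is also annotated as the first of MT-CO3. MT-ND6, which lacks a stable tail, had the lowest level after MT-ATP8 in both libraries, with MT-CO1 at 27.5 and 29.996 times its FPKM.

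Nuclear copies of mitochondrial genes took some fragments. Pieces of the mitochondrial chromosome have been inserted into nuclear chromosomes during evolution, and a recent insertion near the start of chromosome 1 holds several full-length genes. Of 56 nuclear copies with a value, 3 had a mean FPKM of at least 1, and all 3 lie there. MTATP6P1 (chromosome 1, 633696 to 634376) had 467 and 371 FPKM, from 4980 and 4115 fragments, which is 13.5% and 10.8% of the fragments of MT-ATP6. MTND2P28 (629640 to 630683) had 118 and 150, and MTCO1P12 (631074 to 632616) 11.4 and 7.79. The next in level, MTRNR2L2 and MTCO3P12, had 0 fragments in the control and 2 and 9 in the LINC01133 library. MTATP6P1 differs from MT-ATP6 by 10 substitutions over 681 aligned bases (98.5% identity), MTND2P28 from MT-ND2 by 17 over 1042 (98.4%) and MTCO1P12 from MT-CO1 by 20 over 1542 (98.7%).

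The stretch of 60 bases in which MT-ATP6 and its copy differ most is printed to show how few bases tell them apart. It is bases 116 to 175 of the gene, at chrM:8642-8701 and chr1:633811-633870, both on the plus strand of GRCh38, with the 3 differing bases in capitals.
MT-ATP6: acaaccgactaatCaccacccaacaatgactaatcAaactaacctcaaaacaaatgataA
MTATP6P1: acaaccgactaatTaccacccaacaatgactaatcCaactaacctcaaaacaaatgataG
With the fragments of each copy added to its mitochondrial gene, the ratio of MT-ATP6 went from 0.985 to 0.962, that of MT-ND2 from 0.981 to 0.989 and that of MT-CO1 stayed at 0.862. The ratios of the copies themselves were 0.794 (0.762 to 0.828), 1.27 (1.19 to 1.34) and 0.685 (0.567 to 0.826), so they did not run parallel to their mitochondrial genes. How fragments that align to several places were treated is not given in the sources used here.

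The nuclear genes for subunits of the same complexes were mostly lower in the LINC01133 library. The 66 past the filter included 1 that was at least 2-fold higher and 0 that were lower, beside 11.9% and 0.444% of all genes. A log2 ratio above 0 was seen in 18, beside 55.4% of all genes, and the median was -0.19, or -0.21 with both trends subtracted. By complex the medians were -0.18 over 30 genes for complex I, -0.33 over 9 for complex III, -0.31 over 11 for complex IV and -0.01 over 16 for complex V, beside mitochondrial medians of -0.03 over 7 messenger RNAs for complex I and -0.19 over 3 for complex IV, -0.38 for MT-CYB, and -0.02 for MT-ATP6 and 0.79 for MT-ATP8. The gene at least 2-fold higher was NDUFA5, a peripheral complex I subunit (FPKM 1.45 and 5.72), while the complex I core subunit NDUFS8 had 43.1 and 25.3. In complex III, UQCRB had 2.25 and 4.46 and UQCRC1 132 and 82.1. In complex IV, COX8A had 20.9 and 12.3 and COX5B 100.4 and 66.6. In complex V, ATP5PB had 47.5 and 65.6 and ATP5F1D 80.5 and 62.3. In each of complexes I, III and V the 2 genes named differed in opposite directions, the AT-rich one higher and the GC-rich one lower, such as NDUFA5 at 35.04% GC and NDUFS8 at 57.9%.

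Nuclear genes that act on mitochondrial DNA and RNA differed in both directions, with counts near the shares among all genes. The 90 past the filter included 9 that were at least 2-fold higher and 0 that were lower, beside 11.9% and 0.444% of all genes. Of the 90, 55 were above 0, beside 55.4% of all genes, and their median log2 ratio was 0.23 beside 0.10. TFAM, which packages mitochondrial DNA and starts its transcription, had 2.25 and 11.04 FPKM, a ratio of 4.90 (4.201 to 5.73) from 198 and 1009 fragments. POLRMT, the polymerase, had 48.3 and 32.8, a ratio of 0.678 (0.646 to 0.713). The transcription factor TFB2M had 10.9 and 20.05 and MTERF3, which holds down initiation, 8.33 and 14.8. MTERF1, the factor that binds in MT-TL1, had 1.02 and 2.97, from 78 and 237 fragments, with a log2 ratio of 0.98, or -0.03 with both trends subtracted. The 9 transcription genes past the filter had a median log2 ratio of 0.36.

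Among the 15 genes of mitochondrial DNA upkeep the median was 0.01. Beside TFAM, the nuclease and helicase DNA2 (3.86 and 11.4), the ribonucleotide reductase subunit RRM2B (0.702 and 3.11) and the primase PRIMPOL (2.47 and 5.87, a log2 ratio of 0.98) had the largest differences. RNA processing genes had a median of 0.31 over 19. FASTKD1, an RNA-binding protein of the FASTK family, had 2.38 and 7.41, and TRNT1, which adds CCA to transfer RNAs, 1.32 and 4.47. FASTKD2 (3.04 and 6.77) and TRMT10C, a subunit of the mitochondrial RNase P (9.43 and 18.6), stayed under 2-fold in FPKM + 1.

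Genes for the tailing, protection and decay of mitochondrial RNA had a median of 0.52 over 12, and 10 were above 0, beside 55.4% of all genes. These 12 were AT-rich, with a median GC content of 41.9%. Nuclear protein-coding genes at 39.6% to 47.7% GC had a median log2 ratio of 0.50, with 89.5% above 0. LACTB2, an endoribonuclease, had 0.430 and 5.11, from 13 and 161 fragments, a ratio of 11.9 (6.77 to 22.8). The exoribonuclease PNPT1 had 8.17 and 18.6. LRPPRC, which binds and stabilises mitochondrial messenger RNAs, had 22.6 and 47.3, a ratio of 2.09 (2.01 to 2.18), whereas its partner SLIRP had 21.1 and 17.4, a ratio of 0.827 (0.749 to 0.913). ANGEL2 had 2.34 and 5.01. Transfer and ribosomal RNA modification genes had a median of 0.06 over 21, with 0 at least 2-fold apart in FPKM + 1. Among them OSGEPL1 had 2.28 and 4.54, YRDC 12.5 and 7.29, TRMT5 3.44 and 6.08 and METTL15 1.001 and 2.18. Translation factors had a median of 0.34 over 16, with GUF1 at 4.31 and 12.3, MTIF2 at 8.40 and 17.1, MTRF1 at 1.43 and 3.47 and the elongation factor TUFM at 409 and 260.

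With both trends subtracted, 1 of these 90 genes was at least 2-fold higher, LACTB2 at a log2 ratio of 1.03, and 0 were lower. The shares of all genes so called with the trends subtracted are not given here, so these counts have no background. TFAM went from 1.89 to 0.98, LRPPRC from 1.03 to 0.48 and POLRMT from -0.55 to -0.06, while SLIRP went from -0.26 to -0.97. The median of the 90 became 0.04. By list the median became 0.18 for DNA upkeep, 0.09 for transcription and -0.01 for RNA processing. It became 0.41 for tailing, protection and decay, -0.06 for modification and 0.02 for translation factors, beside 0.10 for all genes. Whether these differences bear on the mitochondrial transcripts was not tested.

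**Figure D5:**
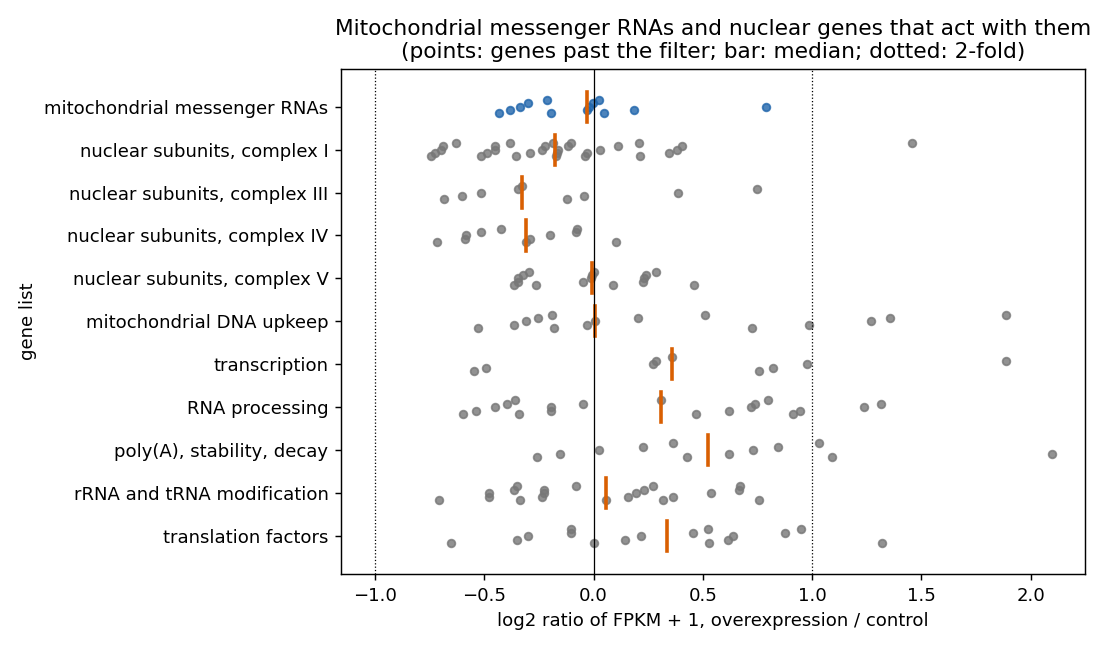
Log2 ratio of FPKM + 1, overexpression over control (horizontal axis), for the mitochondrial messenger RNAs and the genes past the filter in each list of nuclear genes (vertical axis), with a bar at each list's median and dotted lines at 2-fold. The mitochondrial messenger RNAs lie between -0.43 and 0.79, and most nuclear subunits lie left of 0.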

How the data were processed

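RNA of 2 HGC27 libraries was sequenced after poly-T selection, per the labels' protocols. The authors deposited 1 value per gene, read here as FPKM because value times merged exon length (GENCODE 29) falls on whole fragments, within 0.02, for 94.5% (control) and 94.4% (LINC01133) of the genes that have a length. That step gave the depth and the fragments per gene. HTSeq 0.6.0, HISAT2 2.1.0 and Bowtie2 2.2.3 were used with GRCh38, per the submitters' processing notes; their roles, the annotation release and the counting of shared fragments are not given in the sources used here. No p-value or SD was computed. Intervals are Poisson for a level, Clopper-Pearson for a share and conditional binomial for a ratio. No molecular identifiers are named, so fragments may be copies and the intervals cover counting error only. The log2 ratio used a pseudocount of 1 and a mean FPKM of at least 1. Lowess trends (span 0.3) used 1 transcript a gene, the longest that is coding and has a 3′ UTR, otherwise the longest of any kind. Copies were aligned globally with Biopython 1.88. The steps were tested on simulated data.

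Genes were named by these rules: all messenger and ribosomal RNAs; MT-TP; up to 4 members of each list acting on mitochondrial DNA or RNA, and 2 of each nuclear complex, by absolute log2 ratio; POLRMT, TFAM, LRPPRC and SLIRP; the 5 highest nuclear copies; the 4 highest RNAs without a tail. The members and lists were chosen with earlier results of these data known.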

Additional observations from a re-analysis of the deposited data

How the results depend on the processing

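Each group held 1 library, so all values describe these libraries, and depth limits MT-ATP8 most, with 17 and 33 fragments. No paired analysis was possible because there was a single library per group. The alternative scalings, filters, pseudocount and folds, and the subtraction of both trends, were planned; adding the nuclear copies with under 5% substitutions and subtracting the GC trend alone were chosen after seeing the data. Where a value moved, the cause was not tested, unless the alternative leaves genes out by construction. The mitochondrial share of 10.3% in the control was 8.99% among protein-coding genes, 9.07% without the mitochondrial ribosomal RNAs and 10.4% with the nuclear copies added, and that of 10.2% in the LINC01133 library was 8.11%, 8.18% and 10.19%. The median log2 ratio of the 13 messenger RNAs, -0.03, was -0.23 by median of ratios, -0.24 by the trimmed mean of M values, -0.45 by the upper quartile, -0.36 with both trends subtracted, -0.37 with the GC trend alone, -0.067 as a mean and -0.056 with the nuclear copies added. It was below 0 under each of these, but the scalings could only lower it and so could not change its sign. It stayed within the counting interval of MT-ND2, the gene at the median, with a pseudocount of 0.1 and with scaling to fragments outside the mitochondrial chromosome. The 0 genes at least 2-fold higher became 2 at 1.5-fold, and the 0 at least 2-fold lower became 1, MT-TP, with both trends subtracted and 1 with the GC trend alone. Under the other alternatives run both counts were 0. The shares of all genes called with trends subtracted are not given here.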
